A study of Homo sapiens with 480 samples.

Results

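The proteasome subunit genes were described across the reprogramming of human fibroblasts to pluripotency. They were taken as every row whose gene symbol starts with PSMA, PSMB, PSMC or PSMD followed by a number, which gave 39 of 27021 rows. Values are FPKM per cell, rescaled so that each cell sums to 1000000, and a gene counted as detected in a cell at 1 or more. Of the 39 genes, 35 reached a mean of 1 in at least 1 group, and the other 4 (PSMB8, PSMB9, PSMA8 and PSMB11) did not. The 480 cells fall into 5 groups of 96. BJ fibroblasts, a cell line of human skin fibroblasts, carried the treatment label WT and no reprogramming factors. The next groups are BJ cells 2 days and 8 days after viral expression of OSKM was induced, OSKM being the transcription factors OCT4, SOX2, KLF4 and MYC. The last 2 groups are BJ cells 16 days after induction that were TRA-1-60 positive or TRA-1-60 negative, TRA-1-60 being a surface glycan that human pluripotent cells display. All groups come from the same cell line, the 2 fractions of day 16 differ in this sort, and the labels name no separate culture, infection or chip. Each group is therefore 1 sample, its cells are not replicates, and no test between groups was made.

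The proteasome degrades proteins tagged with ubiquitin. Its barrel-shaped core particle is a stack of rings of alpha subunits, which gate the entry, and beta subunits, of which PSMB6, PSMB7 and PSMB5 carry the caspase-like, trypsin-like and chymotrypsin-like active sites. Interferon and cells of the immune system exchange these for PSMB9, PSMB10 and PSMB8, which makes the immunoproteasome. A regulatory particle caps the core: in its base, the PSMC ATPases unfold the substrate while PSMD1, PSMD2 and PSMD4 bind ubiquitin and shuttle proteins, and in its lid PSMD14 cuts the ubiquitin chain off. The members were 7 constitutive alpha genes (PSMA1 to PSMA7), 7 constitutive beta genes (PSMB1 to PSMB7), 3 immunoproteasome genes, 2 tissue-restricted core genes, 6 base ATPases, 3 other base genes, 8 lid genes and 3 assembly chaperones (PSMD5, PSMD9 and PSMD10).

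Of the 480 cells, 460 were kept, namely 92 BJ cells, 96 of day 2, 92 of day 8, 95 TRA-1-60 positive and 85 TRA-1-60 negative cells. The median number of genes detected per cell lay between 5678 and 5915 in the 5 groups. Cells with under 4000 genes were uneven, with 8 in BJ cells, 15 on day 2, 4 on day 8, 32 among the positive and 3 among the negative cells. The labels were set against marker lists. The summed level of 10 fibroblast genes had a median of 11856 in BJ cells, 5314 on day 2, 2436 on day 8, 1533 in positive and 11845 in negative cells, and all 10 pluripotency genes reached a mean of 1 in positive cells, against 3 of 10 in negative cells. The 5 epithelial genes had median sums of 201 in BJ cells, 772 on day 2, 3896 on day 8, 2306 in positive and 670.4 in negative cells. The 5 mitotic genes had median sums of 536 in BJ cells, 185 on day 2, 496 on day 8, 1067 in positive and 1.71 in negative cells. The part of these differences in the results below was not tested. Blood and endothelial markers had a median sum of 0 in every group. The 9 interferon response genes stood apart by group, with median sums of 118 in BJ cells, 826 on day 2, 141 on day 8, 72.6 in positive and 1329 in negative cells. Some ribosomal protein genes with many copies in the genome split the groups in the same way: RPL21 averaged 4.44 in BJ cells, 1225 on day 2, 5.90 on day 8, 2.49 in positive and 992 in negative cells. Whether the 5 groups were normalized or aligned alike is not stated in the sources used here, so such a split and a change in the cells cannot be told apart.

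Most proteasome genes were detected in most of these cells, and their detection was not set against that of other genes. The median cell held 34 of the 39 members in BJ cells, on day 2 and on day 8, and 33 in both fractions of day 16. At least 30 members were detected in 92.4% of BJ cells, 85.4% of day 2 cells, 98.9% of day 8 cells, 63.2% of positive cells and 96.5% of negative cells. The positive cells thus had a tail of cells with few members, which the plot of members detected per cell shows. That tail was made of the cells with few genes: the 32 positive cells under 4000 genes held a median of 21.5 members, and the other 63 held 34. PSMC4, a base ATPase, was the 1 member detected in all 460 cells, and PSMB5 was detected in 458 of them.

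The members together took a small share of the messenger RNA, and that share was highest in TRA-1-60 positive cells. In percent of the total, their means summed to 1.14% in BJ cells, 1.31% on day 2, 1.48% on day 8, 1.71% in positive cells and 1.35% in negative cells. Per cell, the lowest, median and highest sums were 2547, 11954 and 19144 in BJ. They were 999, 13772 and 21698 on day 2 and 5780, 15135 and 20372 on day 8. They were 1396, 17455 and 34816 in positive cells and 9888, 13353 and 20003 in negative cells. The groups overlapped throughout, and positive cells had the widest range. The positive cells with at least 4000 genes had a median sum of 17900, and those with fewer had one of 13550. Without the rescaling to a common total, the summed means were highest on day 2, at 17647 against 13913 in positive cells, the median sum was highest on day 8, at 12698, and stood at 11223 in positive cells, and scaling by housekeeping genes kept it highest in positive cells, at 16586. Since these are shares of a cell's total, the number of proteasome transcripts per cell cannot be read from them.

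**Figure D1:**
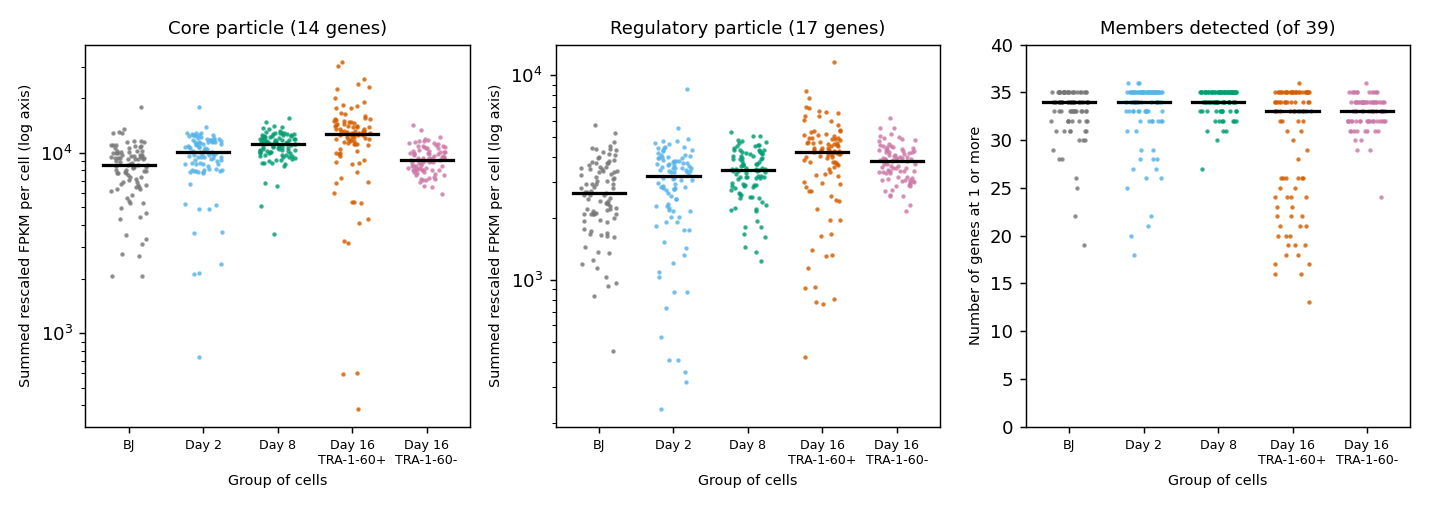
Each point is 1 cell, in the 5 groups along the horizontal axis, and the black bar is the group's median. The left and middle panels give the summed rescaled FPKM of the 14 core and the 17 regulatory particle genes on a log axis, and the right panel gives how many of the 39 members were detected; core medians run from 8571 in BJ to 12753 in TRA-1-60 positive cells, and the positive cells have the long lower tail of members detected.

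Core genes stood well above those of the regulatory particle. The 14 constitutive core genes had a median sum of 8571 in BJ cells, 10061 on day 2, 11235 on day 8, 12753 in positive and 9166 in negative cells. The 17 regulatory particle genes had a median sum of 2672 in BJ cells, 3208 on day 2, 3444 on day 8, 4219 in positive and 3832 in negative cells. Per subunit, core FPKM over regulatory FPKM in the median cell was 3.57 in BJ cells, 3.93 on day 2 and 3.95 on day 8. It was 3.67 in positive and 3.11 in negative cells. FPKM is scaled by transcript length, and whether reads grew with length in these libraries was not tested. Levels of different genes are therefore compared in FPKM and not as transcript numbers. The negative fraction was thus the lowest in this ratio, with 50% of its cells between 2.55 and 3.36, against 3.14 to 4.75 in the positive fraction. Its core level was closer to that of BJ, and its regulatory level was above that of day 8.

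Within the core, mean levels differed more between genes than between groups. Among the alpha genes, PSMA7 had the highest mean at 1181 in BJ cells, 853 on day 2, 1183 on day 8, 895 in positive and 905 in negative cells, except that PSMA3, at 979, and PSMA4, at 971, passed it in positive cells. There 1 cell each held 10.5% of the PSMA3 sum and 14.7% of the PSMA4 sum. The medians in positive cells were 969 for PSMA7, 750 for PSMA3 and 702 for PSMA4, so PSMA7 was above both. PSMA5 was the lowest alpha gene in all 5 groups, at 52.3 in BJ cells, 72.7 on day 2, 85.2 on day 8, 75.5 in positive and 54.7 in negative cells. PSMA7 and PSMA5 encode parts of the same ring, which holds 1 copy of each alpha subunit. The levels compared are FPKM, scaled by transcript length, with the limit given above. PSMA2 and PSMA6 had their lowest means in BJ. PSMA2, an alpha subunit, averaged 318 in BJ cells, 447 on day 2, 509 on day 8, 835 in positive and 456 in negative cells. PSMA6 averaged 369 in BJ cells, 723 on day 2, 735 on day 8, 753 in positive and 621 in negative cells, so that BJ was the lowest by means. By means of log2 values PSMA6 was at 8.00 in BJ and 7.93 in positive cells, and the cells of these groups overlapped. PSMA1 went the other way, with its lowest mean, 319, in positive cells and its highest, 585, on day 2.

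Of the constitutive beta genes, PSMB5 was the most abundant member at all stages after BJ. PSMB5, the chymotrypsin-like subunit and the main target of proteasome inhibitor drugs, averaged 1018 in BJ cells, 1509 on day 2, 1596 on day 8, 2642 in positive and 1489 in negative cells. Its lowest, median and highest cell were 1.97, 877 and 6633 in BJ cells, 0, 1449 and 7769 on day 2 and 443, 1599 and 2968 on day 8. They were 0, 1987 and 25008 in positive cells and 175, 1427 and 4454 in negative cells. The positive group thus held the highest single cells and the groups overlapped. The other catalytic genes had other orders of groups. PSMB6, the caspase-like subunit, averaged 911 in BJ cells, 811 on day 2, 1027 on day 8, 1470 in positive and 1331 in negative cells. PSMB7, the trypsin-like subunit, averaged 727 in BJ cells, 892 on day 2, 909 on day 8, 703 in positive and 615 in negative cells. Of the 3 catalytic genes, PSMB7 was thus the 1 with its lowest mean in negative cells, while PSMB5 was lowest in BJ and PSMB6 on day 2. PSMB2, a structural beta subunit, was the lowest constitutive beta gene in all groups, with means of 56.2 in BJ cells, 136 on day 2, 83.8 on day 8, 89.8 in positive and 54.1 in negative cells. Its day 2 mean rested on 1 cell at 4549, which held 34.9% of the sum over cells, and the day 2 median was 76.6 against 48.7 in BJ.

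**Figure D2:**
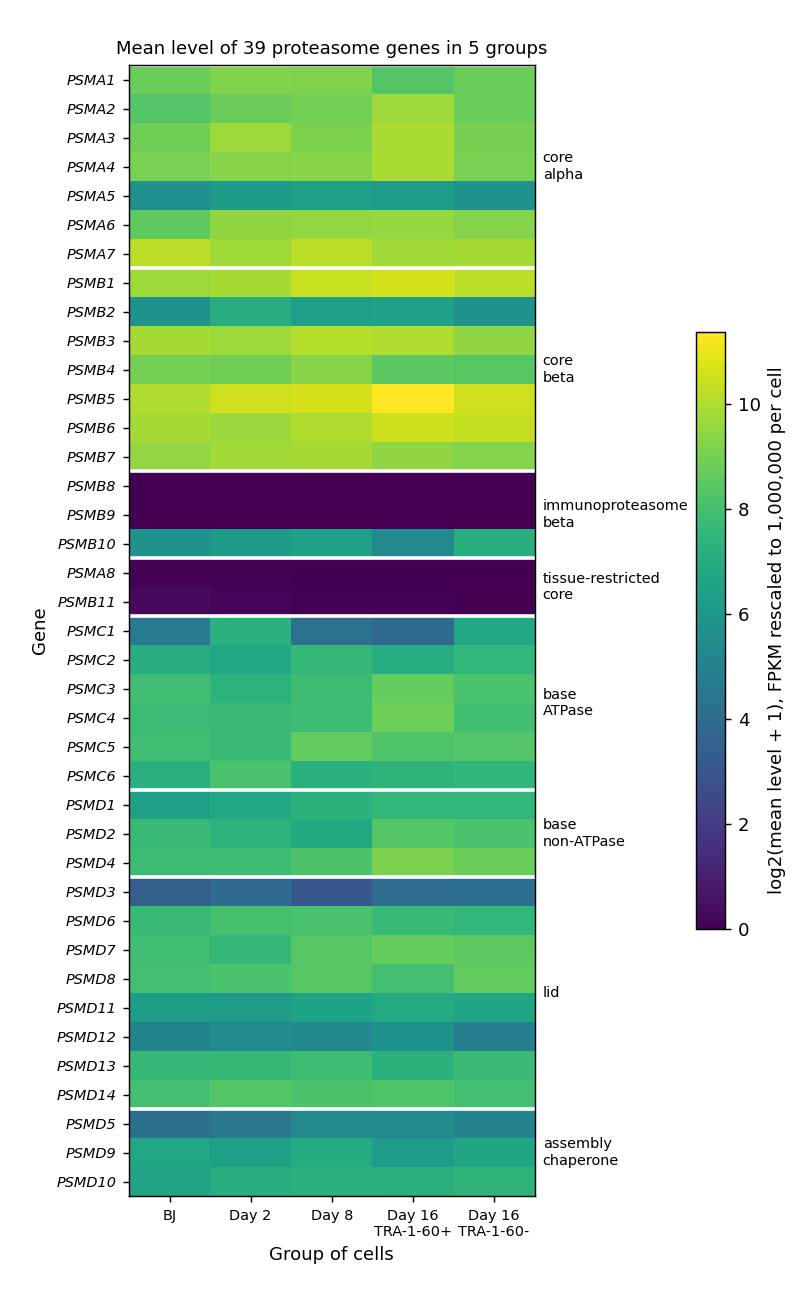
Colour gives log2 of the mean rescaled FPKM plus 1 for each of the 39 proteasome genes (rows, by class) in the 5 groups (columns), BJ to the TRA-1-60 negative cells. Core genes are bright throughout except PSMA5 and PSMB2, PSMC1 alternates between groups (24.2, 154, 18, 13.7 and 113 from left to right), and the 4 dark rows are the genes with no mean of 1 or more.

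The immunoproteasome could be followed through 1 of its 3 genes. PSMB8 and PSMB9 were listed at 0 in all 480 cells. They lie in the MHC region, where the values hold little of anything: among 20 protein-coding genes to either side of PSMB8, 38 had a row, 3 of these had a mean of 1 or more and 26 were at 0 in all kept cells, whereas in stretches 280 genes away 62 of 74 had a mean of 1 or more and 1 was at 0. These zeros therefore say nothing of the level of PSMB8 or PSMB9. PSMB10 lies on another chromosome and was measured. Its lowest cell was at 0 in every group, and its median and highest cells were 15.6 and 637 in BJ cells, 59.2 and 383 on day 2, 60.9 and 524 on day 8, 3.81 and 540 in positive and 80.5 and 987 in negative cells. Its means were 54.6 in BJ cells, 72.7 on day 2, 88.7 on day 8, 42.7 in positive and 144 in negative cells. PSMB10 was thus the member most unlike between the 2 fractions apart from PSMC1. It was detected in 50.5% of positive cells, with an exact Clopper-Pearson 95% interval of 40.1 to 61%, and in 72.9% of negative cells, with an interval of 62.2 to 82%. In the other groups it was detected in 64.1% of BJ cells, 69.8% of day 2 cells and 83.7% of day 8 cells. These intervals cover counting error only. In positive cells detection went with the number of genes: PSMB10 was found in 71.4% of those with at least 4000 genes, at a mean of 52.5, and in 9.38% of those below, while the negative cells with at least 4000 genes had 72% and a mean of 131. Among cells with at least 4000 genes the shares of the 2 fractions were thus close to each other, and the mean was lower in positive cells.

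The promoter of PSMB10 is printed because its level differed between the fractions and because it holds the interferon response core, a short motif that interferon regulatory factors bind. The sequence is RefSeq's, of build GRCh38.p14, and covers the 250 bases before the annotated start, chr16:67936851-67937100 on the minus strand; letters run 5′ to 3′ on the gene's strand, and capitals mark the motif, which lies 21 to 12 bases before the start.
PSMB10: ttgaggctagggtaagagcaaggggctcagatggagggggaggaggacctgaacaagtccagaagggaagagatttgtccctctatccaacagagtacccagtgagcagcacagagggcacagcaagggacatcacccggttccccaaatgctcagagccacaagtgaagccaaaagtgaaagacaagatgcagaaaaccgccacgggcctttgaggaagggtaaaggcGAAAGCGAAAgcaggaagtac

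Windows of this length were matched for 34 of the 39 members, and both strands were searched. A gene counted as holding a motif where any of its windows did. The interferon response core was found in 3 members (PSMA4, PSMB4 and PSMB10), or 8.82%, and in 3.71% of 27305 genes. The other 2 members that hold it had other orders of groups. PSMA4, an alpha subunit, averaged 544 in BJ cells, 633 on day 2, 644 on day 8, 971 in positive and 541 in negative cells. PSMB4, a structural beta subunit, averaged 506 in BJ cells, 481 on day 2, 626 on day 8, 362 in positive and 343 in negative cells. A match describes letters in a window, not binding.

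The interferon-inducible genes PSME1 and PSME2, outside the family, had their highest means in the negative fraction, as PSMB10 did. By means of log2 values, PSMB10 was at 5.15 on day 8 and 5.12 in negative cells. PSME1 and PSME2 encode the cap that opens the core in place of the regulatory particle and favours peptide production. PSME1 averaged 259 in BJ cells, 280 on day 2, 300 on day 8, 192 in positive and 349 in negative cells. PSME2 averaged 282 in BJ cells, 337 on day 2, 232 on day 8, 229 in positive and 398 in negative cells. The interferon response markers were high on day 2 and in negative cells, whereas the PSMB10 mean was 88.7 on day 8 and 72.7 on day 2, an order that turned round (log2 ratio -0.08) among cells with at least 4000 genes. Over cells, the rank correlation of PSMB10 with the interferon response markers was 0.19 in BJ cells, 0.32 on day 2 and -0.05 on day 8. It was 0.37 in positive and 0.12 in negative cells. That of the constitutive gene PSMB7 was 0.24 in BJ cells, 0.36 on day 2, 0.15 on day 8, 0.31 in positive and -0.10 in negative cells. Rank correlations of PSMB10 with the number of genes detected were 0.13 in BJ cells, 0.35 on day 2 and -0.001 on day 8. They were 0.63 in positive and -0.04 in negative cells. The part of interferon, or of the number of genes detected, in these levels was not tested.

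**Figure D3:**
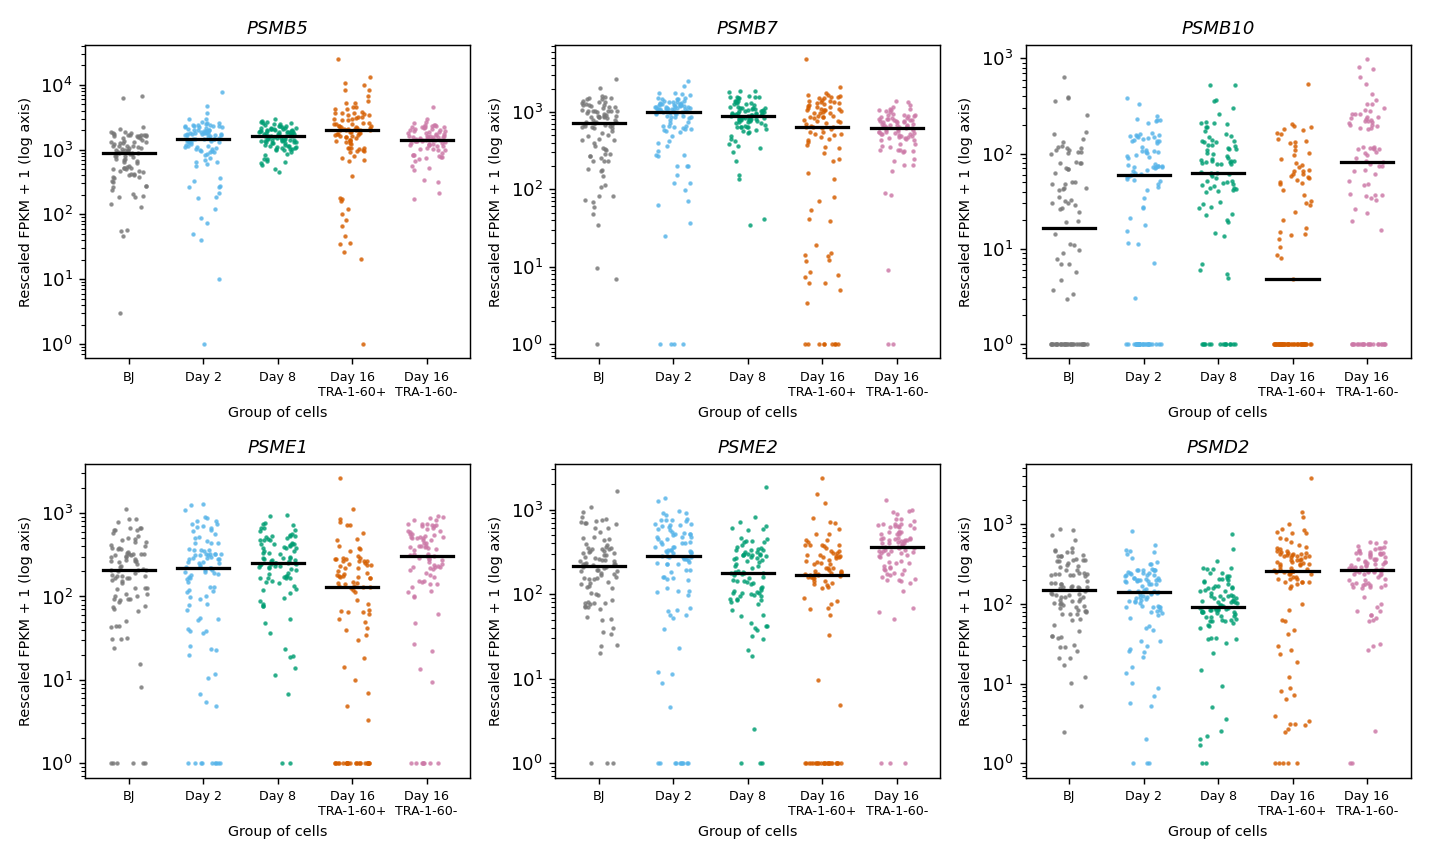
Each point is 1 cell and the black bar the median, with rescaled FPKM plus 1 on a log axis, for the catalytic genes PSMB5 and PSMB7, the immunoproteasome gene PSMB10, the activator genes PSME1 and PSME2 and the base gene PSMD2. Cells at the bottom of each panel had a value of 0; PSMB10 was detected in 50.5% of TRA-1-60 positive cells and 72.9% of negative cells, and PSMD2 medians are 261 and 264 in these groups against 90.5 on day 8.

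The tissue-restricted genes were close to 0. PSMA8, an alpha subunit of germ cells, was above 0 in 6 of 96 BJ and 4 of 96 day 2 cells, with at most 1.42 FPKM as deposited, and in no cell of the 3 later groups, where 0 detected of 92, 95 and 85 kept cells allows shares of up to 3.26%, 3.16% and 3.53%. PSMB11, the beta subunit of thymic epithelium, was above 0 in 6, 8, 5, 2 and 1 of 96 cells from BJ to the negative fraction. Its highest deposited value was 15.5 FPKM, in a BJ cell.

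In the base of the regulatory particle, PSMD2, PSMD4, PSMC3 and PSMC4 had their highest means in TRA-1-60 positive cells. PSMD2, the scaffold that binds shuttle proteins, averaged 200 in BJ cells, 163 on day 2, 118 on day 8, 334 in positive and 271 in negative cells. Its median cells were 149 in BJ cells, 141 on day 2, 90.5 on day 8, 261 in positive and 264 in negative cells, so day 8 was the low point and the 2 fractions were alike. PSMD4, a ubiquitin receptor, averaged 222 in BJ cells, 225 on day 2, 292 on day 8, 560 in positive and 452 in negative cells. PSMD1, the other scaffold, was lowest in BJ at 87.6 and stood at 108 on day 2, 158 on day 8, 185 in positive and 183 in negative cells. Among the ATPases, PSMC4 averaged 222 in BJ cells, 213 on day 2, 228 on day 8, 457 in positive and 241 in negative cells. PSMC3 averaged 232 in BJ cells, 162 on day 2, 225 on day 8, 408 in positive and 285 in negative cells. By medians, PSMC4 was again highest in positive cells, at 326 against 203 in negative cells, whereas PSMC3 was at 226 in positive and 266 in negative cells. When the cells left out were included, the PSMC4 mean was lower in positive than in negative cells, at a log2 ratio of -0.94. PSMC5 was highest on day 8, at 392, against 215 on day 2, and PSMC2 had its highest mean there as well, at 191. PSMC6 had means of 148 in BJ and 274 on day 2, of which 1 cell each held 27.1% and 24.1%; its medians were 56.7 in BJ and 174 on day 2.

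The promoters of PSMD2 and PSMC4 are printed because these base genes had log2 ratios of 1.49 and 1.00 in positive cells over day 8, the highest in the base, and both hold the core of the ZNF143 motif. The windows are chr3:184298991-184299240 for PSMD2 and chr19:39970915-39971164 for PSMC4, both on the plus strand. RefSeq lists 2 starts for PSMD2. The window with most matches to the motif was taken, or the first by position where these were equal. Capitals mark the motif, on the minus strand 197 to 186 bases before the start of PSMD2 and on the plus strand 62 to 51 bases before that of PSMC4.
PSMD2: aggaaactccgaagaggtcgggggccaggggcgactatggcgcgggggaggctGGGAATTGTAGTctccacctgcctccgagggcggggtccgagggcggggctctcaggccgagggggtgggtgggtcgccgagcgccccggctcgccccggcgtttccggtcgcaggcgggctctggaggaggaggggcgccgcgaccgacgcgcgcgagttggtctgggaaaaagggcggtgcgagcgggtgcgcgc
PSMC4: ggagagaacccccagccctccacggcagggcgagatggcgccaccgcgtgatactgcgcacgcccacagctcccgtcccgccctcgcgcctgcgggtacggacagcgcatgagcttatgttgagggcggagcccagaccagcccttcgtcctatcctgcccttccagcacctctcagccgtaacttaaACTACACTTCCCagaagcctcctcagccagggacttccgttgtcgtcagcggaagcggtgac

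This motif was found in 5 members (PSMC3, PSMC4, PSMD2, PSMD10 and PSMD11), or 14.7%, and in 2.05% of the 27305 genes with windows. In positive cells over day 8 the log2 ratios were 0.85 for PSMC3, 1.00 for PSMC4, 1.49 for PSMD2, 0.02 for PSMD10 and 0.38 for PSMD11, which ran from close to 0 to the highest of any member. As differences of mean log2 values, PSMC3 at -0.64, PSMD10 at -1.05 and PSMD11 at -0.52 were below 0. CGGAAG, the core of ETS factor sites, was found in 20 members (58.8%) and in 19.4% of these genes. TGACNNNGC, the core of the antioxidant response element that NFE2L1 and NFE2L2 bind, was found in 8 members (23.5%) and in 13.2% of all genes with windows. CCAAT was found in 17 members (50%) and in 37% of all genes with windows, GGGCGG in 20 members (58.8%) and in 46.2%, and TATAAA in 5 members (14.7%) and in 13%. The windows of members had a median GC content of 60.8%, and all windows had one of 58%.

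PSMC1 split the groups in a way that no other measured member did. It averaged 24.2 in BJ cells, 154 on day 2, 18 on day 8, 13.7 in positive and 113 in negative cells. Its lowest cell was at 0 in all 5 groups, and its median and highest cells were 17.9 and 331 in BJ cells, 154 and 438 on day 2, 16.4 and 54.4 on day 8, 11.1 and 82.8 in positive and 99.9 and 355 in negative cells. Most cells of day 2 and of the negative fraction thus lay above nearly all cells of day 8. The lower of the day 2 and negative means, plus 1, was 4.52 times the highest of the other 3, plus 1, and among the other measured members this ratio was at most 1.06, in PSMC6. Of 8583 genes with a mean of 10 or more in some group, 20 had day 2 and negative means of 10 or more that were both at least 4 times the highest of the other 3 means, with nothing added, PSMC1 among them. Of these 20, 8 were ribosomal protein genes or copies of them, such as RPL21, RPL9, RPL7, RPS27 and RPS28, and OAS1, IFI6, ISG15, IFIT2 and OAS2 are interferon-induced genes. RefSeq lists 13 pseudogenes of PSMC1, at most 4 for any other member and none for 20 members, and no row for a PSMC1 pseudogene was among the values. The level of PSMC1 is therefore uncertain, since reads shared with near-identical copies could be counted differently between groups, and this was not tested. The sum of the base ATPases without PSMC1 had medians of 874 in BJ cells, 929 on day 2, 1159 on day 8, 1244 in positive and 1166 in negative cells, with no such split.

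**Figure D4:**
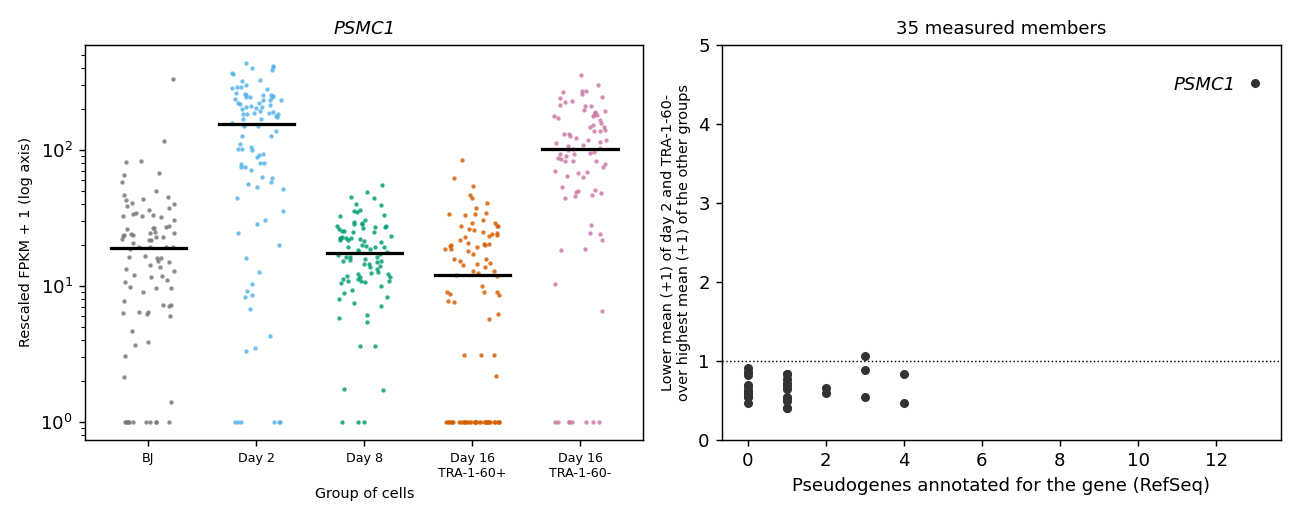
The left panel gives PSMC1 in each cell (rescaled FPKM plus 1, log axis) with the group's median as a bar. The right panel plots, for the 35 measured members, the lower of the day 2 and TRA-1-60 negative means over the highest mean of the other groups, each plus 1, against the number of pseudogenes RefSeq annotates; PSMC1 lies at 13 pseudogenes and a ratio of 4.52, and all others lie at 4 or fewer and at most 1.06.

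Of the 8 lid genes, 6 differed by under 2-fold between their highest and lowest group mean. PSMD3, a structural lid subunit, had means of 9.73 in BJ cells, 14.5 on day 2, 7.42 on day 8, 16.0 in positive and 16.0 in negative cells, and was the lowest lid gene in all groups. PSMD14, the deubiquitinase, was among the steadiest members by means, at 252 in BJ cells, 326 on day 2, 292 on day 8, 302 in positive and 252 in negative cells. Its medians differed more, at 162 in BJ cells, 307 on day 2, 283 on day 8, 211 in positive and 210 in negative cells. PSMD7, its partner in the lid, averaged 234 in BJ cells, 192 on day 2, 337 on day 8, 410 in positive and 375 in negative cells. PSMD8 was highest in negative cells at 397, against 247 in BJ. PSMD12 was low and highest in positive cells, at 56.6 against 29.2 in negative cells, with 22.3% of the positive sum in 1 cell and medians of 38.9 in positive and 22.5 in negative cells. Of the assembly chaperones, which leave the base before the particle is complete, PSMD10 averaged 97.4 in BJ cells, 137 on day 2, 153 on day 8, 155 in positive and 166 in negative cells. PSMD5 was the lowest of the 3, at 17.3 in BJ cells, 22.2 on day 2, 39.4 on day 8, 42.5 in positive and 34.4 in negative cells. In positive cells 1 cell held 23.2% of the PSMD5 sum, and the medians were 7.28 in BJ cells, 7.93 on day 2, 33.9 on day 8, 7.09 in positive and 31.5 in negative cells. PSMD9 had its highest mean on day 8, at 127, and its lowest in positive cells, at 75.

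Taken across the 5 groups, the group means of the members spanned less than those of most genes. The ratio of the highest to the lowest group mean, each plus 1, was under 2 in 20 of 35 measured members (57.1%), against 15.02% of 15120 genes with a mean of 1 or more in some group. Among 3518 genes with a mean of 50 or more, 19.4% stayed under 2, against 60.6% of the 33 members at that level. The median span was 1.83 over the members and 3.18 over all genes. The span was not computed for means of log2 values. By these, 19 of 35 members were at least 2-fold lower and none higher in positive cells over day 8. Of all genes, 16.3% were lower and 6.98% higher there. PSMC1 spanned most at 10.5, followed by PSMB10 at 3.31 and PSMD2 at 2.81, and PSMD14 spanned least of the measured members at 1.29. The group with the highest mean was the positive fraction in 16 members, day 8 in 10, day 2 in 5 and the negative fraction in 4, and BJ in none. BJ had the lowest mean in 13 members. This order depended on the average. By medians over cells the highest group was the positive fraction in 13 members, day 8 in 11, the negative fraction in 6 and day 2 in 5. By means of log2 values it was day 8 in 21, the negative fraction in 10, day 2 in 3 and the positive fraction in 1, PSMC4, and the positive fraction was lowest in 19. The spread of members between cells was taken over those with a mean of 10 or more in the group, 34 or 35 of them. It was least on day 8, where the coefficient of variation had a median of 0.536. The median was 0.924 in BJ cells, 0.756 on day 2, 1.07 in positive and 0.566 in negative cells. This coefficient was not computed over all genes, and the part of cells with few genes in it was not tested.

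In the comparisons below, a gene counted as called where the ratio of means, each plus 1, reached 2 and the mean of log2(value + 1) differed in the same direction, which describes these samples and tests nothing. For day 2 over BJ, 2 of 35 measured members were called higher and none lower, where 12.2% of all 12480 measured genes were called higher and 12.1% lower. The called genes were PSMC1, at a log2 ratio of 2.62, and PSMB2, at 1.26 by means and 0.64 by medians. PSMA6 at 0.97, PSMC6 at 0.88 and PSMA3 at 0.77 came next and were at least 1.5-fold higher, which 22.1% of all genes were. The lowest members were PSMC3 at -0.51, PSMA7 at -0.47 and PSMD2 at -0.29, none of them past 1.5-fold, where 23% of all genes were at least 1.5-fold lower. The members had a median log2 ratio of 0.29 and all genes one of -0.02. Of the 35 members, 23 lay above 0, as did 6127 of 12480 genes. The share of members called was near or under the share of all genes.

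For day 8 over day 2, no member was called higher, where 13% of 12577 genes were, and PSMC1 alone was called lower at -3.02, where 12.5% of genes were. PSMC5 at 0.86, PSMD7 at 0.81, PSMD5 at 0.80 and PSMC2 at 0.76 were at least 1.5-fold higher, which 24.7% of all genes were. With FPKM as deposited, PSMC2 turned to -0.19. The lowest after PSMC1 were PSMD3 at -0.88 and PSMC6 at -0.86. PSMD3 was at least 1.5-fold lower, as were 21.2% of all genes, whereas the mean of log2 values of PSMC6 was higher on day 8. The median log2 ratio was 0.23 over the members and 0.06 over all genes. The median of the members turned to -0.26 when cells were scaled by housekeeping genes, and that of all genes moved to -0.39.

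For TRA-1-60 positive cells over day 8, 2 members were called higher, PSMD2 at 1.49 and PSMD3 at 1.01, where 30.3% of 13719 genes were called higher. PSMC4 lay just under the threshold at 1.00, with means of 457 in positive cells and 228 on day 8. PSMB10 was called lower at -1.04, where 11.6% of genes were, and stood at -0.58 when cells with under 4000 genes were left out. At 1.5-fold, PSMA1 at -0.85, PSMB4 at -0.79 and PSMD9 at -0.75 joined it as lower, where 18.1% of genes were, and PSMC4 joined the higher ones, where 39.1% of genes were. The members had a median log2 ratio of 0.10, below the 0.49 of all genes. Of the 35 members, 21 lay above 0, as did 9052 of 13719 genes. The members' median depended on the measure: the difference of mean log2 values had a median of -1.08 over the members, against -0.09 over all genes. By that difference 19 members were at least 2-fold lower and none higher, where 16.3% of all genes were lower and 6.98% higher. At least 30 members were detected in 60 of 95 positive cells and in 91 of 92 day 8 cells, and the part of this in the 2 measures was not tested.

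For TRA-1-60 negative cells over day 8, 3 members were called higher, PSMC1 at 2.58, PSMD2 at 1.19 and PSMD3 at 1.02, where 28.4% of 12965 genes were, and none lower, where 10.6% were. PSMD3 had a median of 4.83 in negative cells and 5.31 on day 8, so its call rested on few high cells. At 1.5-fold, PSMD4 at 0.63 joined the higher ones, where 44% of genes were, and PSMB4 at -0.87, PSMA5 at -0.63, PSMB2 at -0.62 and PSMB3 at -0.62 were lower, where 16.6% of genes were. All 7 alpha genes and 6 of 7 constitutive beta genes were below 0, with medians of -0.25 and -0.56, while the base genes other than ATPases had a median of 0.63 and all 3 lay above 0. Of all 12965 genes, 4130 lay below 0 and 8835 above. With housekeeping scaling 3 of 7 alpha and 4 of 7 beta genes were below 0, with medians of 0.03 and -0.37. How many of all genes lay below 0 under that scaling was not counted. The median of all members was -0.10 and that of all genes 0.49. Scaling by housekeeping genes turned the median of all members to 0.16, where that of all genes was 0.70.

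For positive over negative cells, no member was called higher, where 24.8% of 14060 genes were, and 2 were called lower, PSMC1 at -2.95 and PSMB10 at -1.72, where 21.4% of genes were. At 1.5-fold, PSMD12 at 0.93, PSMC4 at 0.92, PSMB5 at 0.83 and PSMB2 at 0.72 were higher, where 31.9% of genes were, and PSMD8 at -0.66 was lower, where 30.7% of genes were. With all 480 cells, PSMC4 turned to -0.94. PSMA3 at 0.89 and PSMA2 at 0.87 had higher means in positive cells, and their means of log2 values were lower there. The alpha genes had a median of 0.46, the constitutive beta genes of 0.37 with all 7 above 0, the ATPases of -0.09 and the lid genes of 0.15. Of all 14060 genes, 7277 lay above 0. The median of all members was 0.19 and that of all genes 0.06. As a difference of mean log2 values the median of the members was -0.85, with 7 of 7 alpha and 5 of 7 beta genes below 0, against -0.12 over all genes. How many of all genes lay below 0 by this difference was not counted.

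**Figure D5:**
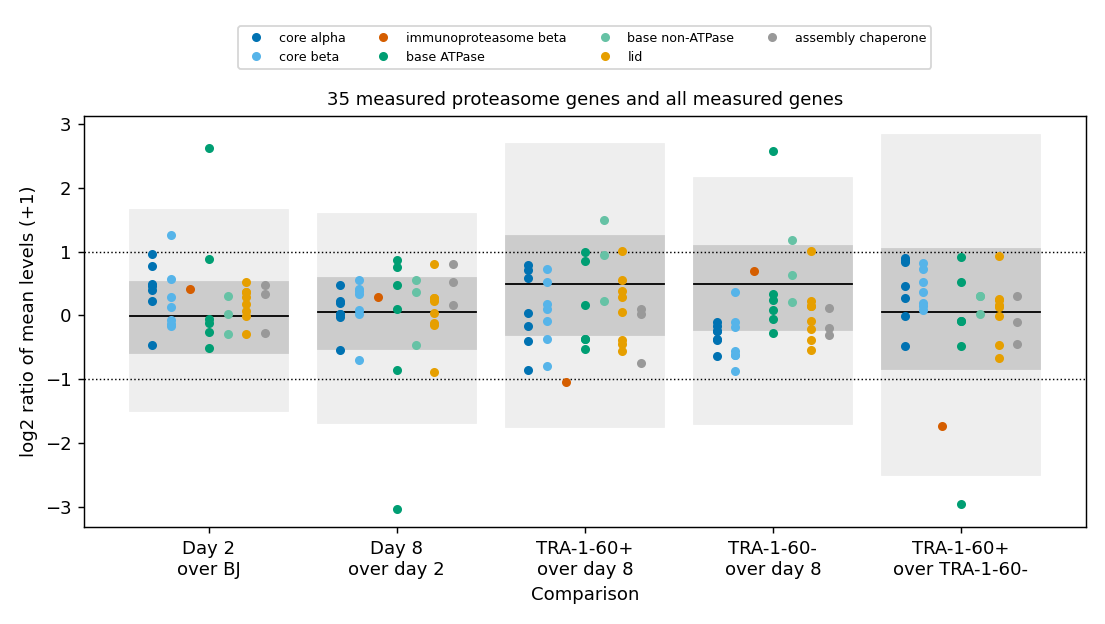
Each point is 1 of the 35 measured members, coloured by class, with the log2 ratio of mean levels plus 1 in the 5 comparisons. The grey boxes give the middle 50% (dark) and middle 90% (light) of all measured genes with their median as a line, and dotted lines mark 2-fold; nearly all members lie inside the dotted lines, PSMC1 lies outside in 4 comparisons, and for the 2 fractions of day 16 over day 8 most members lie below the median of all genes (0.49 in both).

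The genes around the proteasome were counted from a list of 38, of which 37 or 38 were measured in each comparison. For day 2 over BJ, 2 were called higher, where 12.2% of all genes were, and none lower, where 12.1% were: PSME3, a nuclear activator, averaged 32.5 on day 2 and 14 in BJ cells, and NGLY1, the deglycosylase that acts on the transcription factor NFE2L1, averaged 19.8 on day 2 and 8.31 in BJ. For day 8 over day 2, none was higher, where 13% of all genes were, and 2 were lower, where 12.5% were, the shuttle gene RAD23B (4.94 on day 8 and 11.1 on day 2) and the ubiquitin-activating enzyme UBA6 (5.72 on day 8 and 18.6 on day 2). For positive cells over day 8, 9 of 38 were higher, where 30.3% of all genes were, and for negative cells over day 8, 5 of 37 were, where 28.4% were. For positive over negative cells, 3 were higher (USP14, RAD23B and DDI2), where 24.8% of all genes were. DDI2, also among the 9, was measured in these 2 comparisons only through its mean in positive cells, where it was high.

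Among the genes that act on the level or place of the proteasome, 4 of 5 measured were called higher in positive cells and 3 of 4 in negative cells over day 8, where 30.3% and 28.4% of all genes were. NFE2L1, which drives proteasome genes when proteolysis falters, averaged 20.4 in positive and 25.9 in negative cells against 8.74 on day 8. NGLY1 averaged 78.6 in positive cells, 43.7 in negative cells and 19.9 on day 8. NFE2L2, the oxidative stress factor, was called in negative and not in positive cells, at 79.8 in negative cells against 30.04 on day 8, and 1 cell held 35.02% of its sum in positive cells, where the mean was 64.2. AKIRIN2, which carries proteasomes into the nucleus, averaged 44.8 in positive cells and 14.5 on day 8, with 40.7% of the positive sum in 1 cell. DDI2, the protease that releases NFE2L1, was near the floor, at 2.19 in positive cells and 0.020 on day 8. It passed the minimum mean only through the positive cells, where it was high, and was not measured in negative cells over day 8. Its call in the 4 of 5 was thus close to fixed by that filter and adds no support. VCP, the segregase that hands ubiquitinated proteins to the proteasome, was high in both fractions, at 286 in positive and 258 in negative cells against 112 on day 8, and its medians were 228 in positive, 240 in negative and 113 in day 8 cells. Both comparisons share the day 8 cells. The mean of the shuttle gene RAD23B, 27.5 in positive against 5.13 in negative cells and 4.94 on day 8, had 48.7% of its sum in 1 positive cell. USP14, the deubiquitinase bound to PSMD2, averaged 52.8 in positive and 20.3 in negative cells.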

How the data were processed

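Polyadenylated RNA of 480 single cells was measured on C1 Fluidigm chips with STRT scripts and Nextera XT libraries, per the labels' protocols. The deposited values are FPKM, which the authors made with STAR and Cuffnorm on hg19, per the submitters' processing notes. Versions, and whether all 5 groups were normalized in 1 run, are not given in the sources used here. In the lowest values, multiples of 1 read were found in 0 to 4 of 190 pairs of cells per group, so the depth per cell is unknown and the number of cells limits the precision.

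Each cell was rescaled to sum to 1000000. Cells entered the comparisons with 2000 or more genes detected and either ACTB or GAPDH among them, and 4 BJ, 4 day 8, 1 TRA-1-60 positive and 11 negative cells did not. Within a group no cells had identical columns, and no column was left unused. Doublets were not called; leaving out the 5% of cells with most genes was an alternative. The log2 ratio of 2 groups is that of their means, each plus a pseudocount of 1, which understates the ratio of low genes, and a gene was measured where either mean was 1 or more. Calls were made at 2-fold and, by a second rule, at 1.5-fold. Each group is 1 sample, so no p-value was computed and the spread over cells is no replicate error. Shares carry exact Clopper-Pearson 95% intervals, and a share of 0 is given with an upper limit of 3 cells over the cells measured. The calculation was tested on simulated data.

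The members and lists were chosen with earlier results of these data known. Full values over cells went to the 3 highest and 3 lowest members of a comparison, members called at 2-fold, the ends of each class, and PSMB8, PSMB9, PSMB10, PSMB11 and PSMA8; further genes are described in less detail. Related genes were named where called at 2-fold or at the ends of their list; PSME1, PSME2 and genes sharing a printed motif were named beside the result they bear on. Some related genes, and the counts of lower calls that rest on them, are not reported here. Alternatives covered the scaling, the pseudocount, the average, the filters on genes and the cells kept. Promoters and pseudogene counts came from RefSeq. Python 3.11.15, pandas 2.3.3, NumPy 2.4.6, SciPy 1.17.1 and matplotlib 3.10.9 were used.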

Additional observations from a re-analysis of the deposited data

How the results depend on the processing

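Of 180 values for medians and counts of members under 12 alternatives, 146 stayed close to the reported value, 27 moved and 7 turned. With FPKM as deposited, 10 members were at least 2-fold higher for day 2 over BJ, where 20.9% of all genes were. Day 8 over day 2 had 3 lower, where 18.7% of genes were. TRA-1-60 negative cells over day 8 had 1 higher and 1 lower, where 19.3% of genes were higher and 13.5% lower. Positive over negative cells had 4 higher, where 27.4% of genes were. Positive cells over day 8 had 1 higher, 4 lower and a median of -0.10, where 26.8% of genes were higher and 14.2% lower. With scaling by housekeeping genes, the all-gene median stood at 0.13 for day 2 over BJ, -0.39 for day 8 over day 2, 1.11 and 0.70 for positive and negative cells over day 8, and 0.60 for positive over negative cells, against -0.02, 0.06, 0.49, 0.49 and 0.06 without it. Under this scaling 4 members were higher for day 2 over BJ, where 20.5% of all genes were. The members' median for day 8 over day 2 was -0.26 with 5 lower, where 26.1% of genes were. Their median for positive cells over day 8 was 0.94 with 6 higher, where 43.5% of genes were. Their median for negative cells over day 8 was 0.16. Positive over negative cells had 5 higher, where 35.3% of genes were. Differences of mean log2 values gave 5 higher for day 8 over day 2, where 11.5% of all genes were. Positive cells over day 8 then had a median of -1.08 with 0 higher and 19 lower. Of all genes, 6.98% were higher and 16.3% lower there. Negative cells over day 8 had 2 lower, where 9.55% of genes were. Positive over negative cells had a median of -0.85 with 15 lower, where 20.2% of genes were. Medians over cells gave 4 higher for day 2 over BJ and 1 higher for day 8 over day 2, where 7.87% and 15.2% of all genes were. Positive cells over day 8 then had a median of -0.053 with 1 higher and 4 lower, where 7.01% of genes were higher and 18.3% lower. For that comparison 10% trimmed means gave a median of -0.12 with 1 higher and 3 lower, where 14.2% of genes were higher and 14.3% lower. Both all cells and cells with at least 4000 genes gave 0 lower there, where 11.9% and 10.1% of genes were. All cells gave 1 higher for day 8 over day 2, where 13.1% of genes were. Cells with at least 4000 genes gave 1 higher for positive over negative cells, where 23.8% of genes were.

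All 11 calls of single members were recomputed. PSMC1 was called under all 12 alternatives in its 4 comparisons. PSMD3 in negative cells over day 8 turned to -0.11 by medians over cells, and PSMB2, PSMB10, PSMD2 and PSMD3 each lost a call under at least 1 alternative. The causes were not tested. No paired analysis was possible because each group is 1 sample, no result comes from a test, and cells of different groups share a number and nothing else; for the same reason no replicate could be left out. Depth per cell is unknown, so a gene at 0 in a cell may lie below detection.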

Other observations

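Some genes of the proteasome's surroundings were not described above and are given as mean rescaled FPKM. POMP, which matures the beta rings, averaged 353 in BJ fibroblasts, 532 on day 2, 420 on day 8, 513 in TRA-1-60 positive and 320 in negative cells, and was the highest assembly chaperone in each group. None of the 6 listed chaperones outside the family was called at 2-fold in the 5 comparisons. SEM1, a small lid subunit outside the naming rule, averaged 1148 in BJ fibroblasts, 983 on day 2, 1348 on day 8, 823 in positive and 1070.3 in negative cells, above every lid gene inside it. The ubiquitin receptor ADRM1 averaged 120 in BJ fibroblasts, 117 on day 2, 142 on day 8, 204 in positive and 208 in negative cells.

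Ubiquitin itself is encoded by several genes. UBB, a chain of ubiquitin units, averaged 2787 in BJ fibroblasts, 1989 on day 2, 3243 on day 8, 2475 in positive and 3140 in negative cells.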
